A study of Homo sapiens with 12 samples.

Results

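The AP-1 and EGR transcription factors were followed here as mRNA in PC9 and H1650 cells exposed to inhibitors of the epidermal growth factor receptor (EGFR). The set was chosen by gene symbol and holds 10 genes of the 60591 in the gene table, namely 4 genes of the FOS family (FOS, FOSB, FOSL1 and FOSL2), 3 of the JUN family (JUN, JUNB and JUND) and 3 of the EGR family (EGR1, EGR2 and EGR3). All 10 were among the 19108 genes that had enough reads to be tested. PC9 and H1650 are established human lung adenocarcinoma lines that carry the same activating deletion in EGFR, and the study asked whether their different sensitivity to EGFR inhibition went with different gene expression. For each line, RNA was taken at T0 (0.1% DMSO, 0 h), after 36 h with 10 μM erlotinib and after 36 h with 0.1 μM osimertinib. There were 2 replicates each, which makes 6 groups and 12 libraries. By the methods, cells were seeded at 200000 per well, and the medium held 10% fetal bovine serum. Each level of sensitivity is represented by a single line, and the labels do not say whether the replicates were separate cultures. The p-values therefore measure the spread between these libraries. All 36 h libraries were drug-treated, and a vehicle library of 36 h was not analysed here, so the drug and the time in culture cannot be told apart.

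AP-1 is a dimer of basic leucine zipper proteins. JUN proteins pair with each other or with FOS proteins, whereas FOS proteins need a JUN partner, and the dimers bind the AP-1 site in the control regions of genes for growth, invasion and stress. EGR proteins bind GC-rich sites through zinc fingers. Many of these genes are immediate-early genes, whose transcription growth factors switch on within minutes through ERK signalling, ternary complex factors and SRF (serum response factor), which binds the CArG box. FOSL1 is known as a lasting target of ERK signalling, and JUND as the JUN member that is high in resting cells.

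The genes lie apart in the genome, by GENCODE 29 on build GRCh38, with JUNB, JUND and FOSB on the same chromosome. FOS spans bases 75278774 to 75282230 of chromosome 14 (plus strand), FOSB 45467995 to 45475179 of chromosome 19 (plus), FOSL1 65892049 to 65900573 of chromosome 11 (minus) and FOSL2 28392448 to 28417312 of chromosome 2 (plus). JUN spans 58780788 to 58784327 of chromosome 1 (minus), and JUNB and JUND 12791496 to 12793315 (plus) and 18279760 to 18281622 (minus) of chromosome 19. EGR1 spans 138465490 to 138469315 of chromosome 5 (plus) and EGR2 62811996 to 62919900 of chromosome 10 (minus). Counts are given per gene, so no value refers to a single exon or isoform.

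The promoters of EGR1 and JUND are shown because their mRNAs moved apart in H1650 cells. The 250 bases before the start of transcription were taken from RefSeq on build GRCh38.p14, in which 8 of the 10 genes had an entry, all but FOSL1 and EGR3. Both strands were searched for the AP-1 site TGANTCA, the CRE TGACGTCA, the EGR site GCGNGGGCG, the ETS site CCGGAAGT and the CArG box of SRF, and matches are in capitals. EGR1 (chr5:138465229-138465478, plus strand) and JUND (chr19:18281623-18281872, minus strand) read as follows.
EGR1: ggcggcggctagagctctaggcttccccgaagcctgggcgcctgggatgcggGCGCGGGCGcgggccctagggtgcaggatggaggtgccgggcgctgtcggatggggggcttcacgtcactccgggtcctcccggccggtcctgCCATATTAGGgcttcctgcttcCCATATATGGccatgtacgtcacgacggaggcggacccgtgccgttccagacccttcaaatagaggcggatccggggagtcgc
JUND: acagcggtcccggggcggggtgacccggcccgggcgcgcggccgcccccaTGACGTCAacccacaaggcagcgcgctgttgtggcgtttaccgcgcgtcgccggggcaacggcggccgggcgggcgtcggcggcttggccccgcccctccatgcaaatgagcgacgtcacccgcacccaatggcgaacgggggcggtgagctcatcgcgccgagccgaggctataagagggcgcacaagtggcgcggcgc
In the EGR1 window, CArG boxes CCATATTAGG and CCATATATGG began 105 and 83 bases before the start, and an EGR site GCGCGGGCG began 198 bases before it. The JUND window held the CRE, 200 bases before the start, and no CArG box. Of 35116 promoters of the same length, 1.16% held a CArG box, 8.41% the EGR site, 1.65% the CRE, 6.57% the AP-1 site and 3.42% the ETS site. Of the other genes, EGR2 had a CArG box, 71 bases before one of its starts. No AP-1 or ETS match was found in the windows of the 8 genes. The search describes letters only, and bases farther upstream were not searched.

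The libraries held between 17961765 and 26346187 counts on genes, with a median of 21581420. Mitochondrial genes took 4.54% and 5.17% of them in PC9 cells at T0 and 6.32% to 7.20% after the drugs, and 4.36% and 5.36% in H1650 cells at T0 and 5.77% to 6.60% after the drugs. Every treated library was above both T0 libraries of its line, and the part of this in the results was not tested. Levels are normalized CPM (counts scaled to the effective library size), and 3 reads, the limit that a count of 0 allows, equal 0.116 to 0.168 CPM depending on the library, for counting error only. The 6 epithelial markers (EPCAM, CDH1, KRT7, KRT8, KRT18 and KRT19) were present in every group. Their summed level was 10216 to 10465 CPM in PC9 cells at T0, 9560.3 to 9889.6 after erlotinib and 12484 to 13298 after osimertinib, and 8194 to 8609, 6162 to 6203 and 8875 to 9672 in H1650 cells. The 5 blood cell markers summed to between 0.462 and 3.96 CPM. The 6 endothelial and fibroblast markers summed to 20.7 to 23.5 CPM in PC9 cells at T0, 24.2 to 28.4 after erlotinib and 42.4 to 51.3 after osimertinib, and to 24.4 to 25.3, 18 to 19.1 and 34 to 35.7 in H1650 cells. Both sums were thus highest with osimertinib in each line, as were several of the 10 genes in PC9 cells, and the part of this shift was not tested.

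FOSL1 fell and JUND rose with both drugs in both lines. FOS, FOSB, JUNB and EGR1 rose with both drugs in PC9 cells, whereas in H1650 cells all 4 fell with erlotinib and FOSB and EGR1 fell with osimertinib. Genes were called below 0.05 for the adjusted p of edgeR, which is that of the quasi-likelihood test after Benjamini-Hochberg adjustment over 19108 genes. In PC9 cells, 9 of the 10 genes were called after erlotinib, 6 higher and 3 lower, where 61.8% of all tested genes were called, 32.7% higher and 29.1% lower. Osimertinib in PC9 cells gave 9 calls, 7 higher and 2 lower, against 61.4% of all genes, 32.7% higher and 28.7% lower. With erlotinib in H1650 cells, 9 were called, 1 higher and 8 lower, against 36.5%, 18% higher and 18.5% lower. Osimertinib in H1650 cells gave 6 calls, 2 higher and 4 lower, against 35.7%, 17.8% higher and 17.9% lower. Treated and T0 libraries did not overlap for 10 and 9 of the genes in PC9 cells with erlotinib and osimertinib, and for 10 and 6 in H1650 cells, where this held for 78.7%, 78.8%, 65.6% and 64.9% of all tested genes. The median log2 fold change of the 10 genes was 0.68 and 1.65 in PC9 cells with erlotinib and osimertinib, and -1.40 and -0.24 in H1650 cells, while the medians over all tested genes were 0.07, 0.06, 0.01 and 0. The comparisons of one line share its T0 libraries.

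**Figure D1:**
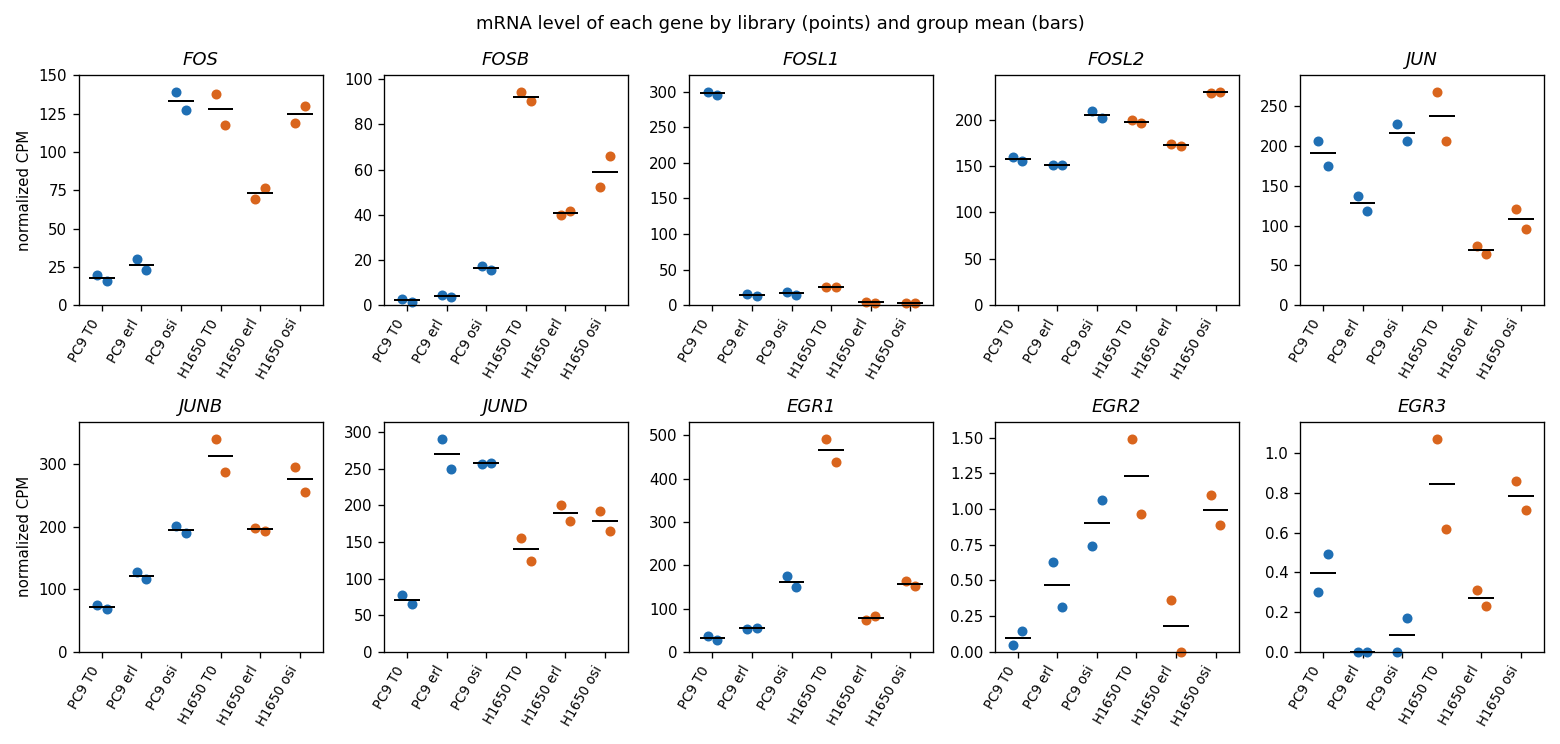
Normalized CPM of each of the 10 genes in the 12 libraries, with 1 panel per gene and a vertical axis that starts at 0. Points are libraries and bars are the means of 2 replicates in each of the 6 groups. FOSL1 stands at 298 CPM in PC9 cells at T0 and at 25.6 CPM or below in all other groups, while EGR1 stands at 465 CPM in H1650 cells at T0.

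FOSL1 encodes FRA-1, a FOS protein without the transactivation domain of FOS. Its counts were 299.9 and 296 CPM in PC9 cells at T0, 15.2 and 13.1 CPM after erlotinib, and 18.7 and 14.9 CPM after osimertinib. In H1650 cells they were 25.4 and 25.8 CPM at T0, 3.92 and 3.68 CPM after erlotinib, and 3.20 and 2.72 CPM after osimertinib. No treated library reached any T0 library of its line, and PC9 cells under either drug stood below untreated H1650 cells. The log2 fold changes were -4.40 (SE 0.101, edgeR adjusted p = 3.71e-23) and -4.14 (SE 0.101, edgeR adjusted p = 7.74e-23) in PC9 cells with erlotinib and osimertinib. In H1650 cells they were -2.75 (SE 0.131, edgeR adjusted p = 1.98e-15) and -3.11 (SE 0.135, edgeR adjusted p = 4.06e-16). Over the 6 groups, the highest mean was 100.8 times the lowest.

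FOS, the first known member of the family, moved the other way in PC9 cells. It was at 19.7 and 15.6 CPM at T0, 29.9 and 23.2 CPM after erlotinib, and 139 and 128 CPM after osimertinib. The groups of PC9 cells did not overlap, and the step with osimertinib was the larger one, with log2 fold changes of 0.59 (SE 0.123, edgeR adjusted p = 0.000156) for erlotinib and 2.92 (SE 0.117, edgeR adjusted p = 2.42e-18) for osimertinib. In H1650 cells FOS was at 138 and 118 CPM at T0, 69.6 and 76.8 CPM after erlotinib, and 119 and 130.1 CPM after osimertinib. The erlotinib libraries were below all others of this line, with a log2 fold change of -0.80 (SE 0.102, edgeR adjusted p = 3.9e-07). With osimertinib the T0 and treated libraries overlapped, and the log2 fold change was -0.03 (95% confidence interval -0.24 to 0.17, edgeR adjusted p = 0.837). PC9 cells under osimertinib thus reached a FOS level whose libraries overlapped those of untreated H1650 cells.

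FOSB, which like FOS carries a transactivation domain, was low in PC9 cells, at 2.87 and 1.33 CPM at T0, 4.48 and 3.63 CPM after erlotinib, and 17.5 and 15.6 CPM after osimertinib. H1650 cells held it at 94.4 and 90.3 CPM at T0, 39.8 and 41.6 CPM after erlotinib, and 52.2 and 66.1 CPM after osimertinib. None of the 6 groups overlapped, and the lowest H1650 library was above the highest PC9 library. FOSB rose in PC9 cells by 0.94 (SE 0.240, edgeR adjusted p = 0.00126) and 2.98 (SE 0.197, edgeR adjusted p = 1.78e-13) on the log2 scale with erlotinib and osimertinib. It fell in H1650 cells by 1.18 (SE 0.118, edgeR adjusted p = 5.65e-09) and 0.64 (SE 0.115, edgeR adjusted p = 5.54e-05). The rise with erlotinib in PC9 cells rested on 84 T0 reads, and without the second T0 library it was 0.48 (edgeR adjusted p = 0.0986).

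FOSL2 encodes FRA-2 and varied least. Its group means lay between 151 and 229 CPM, a ratio of 1.52. In PC9 cells it was at 160.1 and 155 CPM at T0, 151.0 and 150.8 CPM after erlotinib, and 209 and 202 CPM after osimertinib. Erlotinib left it at a log2 fold change of -0.06 (95% confidence interval -0.20 to 0.07, edgeR adjusted p = 0.426), and it rose by 0.38 (SE 0.0674, edgeR adjusted p = 1.68e-05) with osimertinib. H1650 cells had 199 and 196 CPM at T0, 173 and 172 CPM after erlotinib, and 229 and 229.9 CPM after osimertinib. The changes of -0.20 and 0.21 in H1650 cells passed the test (edgeR adjusted p = 0.022 and 0.0127) and each was lost when any 1 of its 4 libraries was left out.

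JUN, whose protein is the partner of FOS in the classical AP-1 dimer, was at 206 and 175 CPM in PC9 cells at T0, 137 and 119 CPM after erlotinib, and 228 and 206 CPM after osimertinib. The H1650 libraries had 268 and 206 CPM at T0, 74.3 and 63.9 CPM after erlotinib, and 121 and 96.2 CPM after osimertinib. All treated H1650 libraries were below T0, while in PC9 cells only the erlotinib libraries were. JUN fell by 0.58 on the log2 scale (SE 0.111, edgeR adjusted p = 5.65e-05) with erlotinib in PC9 cells, and with osimertinib the value was 0.19 (95% confidence interval -0.04 to 0.41, edgeR adjusted p = 0.145). The falls in H1650 cells were larger, at -1.78 (SE 0.116, edgeR adjusted p = 1.43e-12) with erlotinib and -1.13 (SE 0.112, edgeR adjusted p = 5.73e-09) with osimertinib.

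JUNB, a JUN protein that can restrain JUN at some promoters, stood at 74.6 and 68.8 CPM in PC9 cells at T0, 128 and 116 CPM after erlotinib, and 201 and 189.7 CPM after osimertinib. In H1650 cells the libraries were at 341 and 287 CPM at T0, 198 and 194 CPM after erlotinib, and 296 and 256 CPM after osimertinib. The PC9 groups rose without overlap, by 0.77 (SE 0.0881, edgeR adjusted p = 1.47e-08) and 1.45 (SE 0.0884, edgeR adjusted p = 3.12e-14). JUNB fell in H1650 cells by 0.68 (SE 0.0840, edgeR adjusted p = 2.36e-07) with erlotinib. With osimertinib the groups overlapped, and the value was -0.18 (95% confidence interval -0.36 to -0.01, edgeR adjusted p = 0.0875), which was called without the second T0 or the first osimertinib library (edgeR adjusted p = 0.0149 and 0.028). Its exons share 259 bases with HOOK2 on the opposite strand, and whether counting used the strand is not given in the sources used here. HOOK2 rose in all 4 comparisons, by 0.33 to 0.78, and its part in the JUNB counts was not tested.

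JUND rose in all 4 comparisons. In PC9 cells it went from 77.7 and 65.1 CPM at T0 to 291 and 249 CPM after erlotinib and to 256 and 258 CPM after osimertinib. In H1650 cells it went from 156 and 124 CPM at T0 to 201 and 178 CPM after erlotinib and to 192 and 165 CPM after osimertinib. Treated libraries were above T0 in each line, and the 2 drugs overlapped. The log2 fold changes in PC9 cells were 1.92 (SE 0.105, edgeR adjusted p = 2.93e-15) and 1.85 (SE 0.105, edgeR adjusted p = 6.14e-15). They were smaller in H1650 cells, at 0.44 (SE 0.100, edgeR adjusted p = 0.00094) and 0.35 (SE 0.100, edgeR adjusted p = 0.00653). Both H1650 calls depended on single libraries. Without the second T0 library they were 0.28 (edgeR adjusted p = 0.0566) and 0.19 (edgeR adjusted p = 0.207), and without the first osimertinib library the latter was 0.24 (edgeR adjusted p = 0.134).

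EGR1, the most abundant EGR mRNA, was at 36.0 and 27.6 CPM in PC9 cells at T0, 53.6 and 55.6 CPM after erlotinib, and 175 and 150.0 CPM after osimertinib. In H1650 cells it was at 492 and 439 CPM at T0, 73.0 and 83.3 CPM after erlotinib, and 163 and 152 CPM after osimertinib. The lines moved toward each other, so that with osimertinib their libraries overlapped. EGR1 rose in PC9 cells by 0.78 (SE 0.106, edgeR adjusted p = 2.87e-07) and 2.35 (SE 0.105, edgeR adjusted p = 2.65e-17). It fell in H1650 cells by 2.57 (SE 0.0993, edgeR adjusted p = 2.82e-17) and 1.56 (SE 0.0947, edgeR adjusted p = 4.65e-13).

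EGR2 and EGR3, which are best known from nerve and immune cells, were near the detection limit, so their reads are given. EGR2 had 1 and 3 reads in PC9 cells at T0, 14 and 8 after erlotinib, and 16 and 19 after osimertinib. The H1650 libraries had 32 and 25 reads at T0, 7 and 0 after erlotinib, and 23 and 20 after osimertinib. The normalized ratio of EGR2 to T0 in PC9 cells was 4.60 (95% counting interval 1.56 to 18.4) with erlotinib and 8.89 (3.18 to 34.4) with osimertinib, and in H1650 cells with erlotinib it was 0.142 (0.0548 to 0.313). All 3 passed edgeR's test (adjusted p = 0.0417, 0.00225 and 0.00305). The first did not pass DESeq2 (adjusted p = 0.0772), nor edgeR without the first T0, second T0 or first erlotinib library (adjusted p = 0.212, 0.0576 and 0.23), and the last was -1.75 on the log2 scale without the second erlotinib library (edgeR adjusted p = 0.0697). With osimertinib in H1650 cells the EGR2 ratio was 0.823 (0.541 to 1.24), which did not pass (edgeR adjusted p = 0.734).

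EGR3 had 6 and 10 reads in PC9 cells at T0, 0 in both erlotinib libraries, and 0 and 3 after osimertinib. In H1650 cells it had 23 and 16 reads at T0, 6 and 5 after erlotinib, and 18 and 16 after osimertinib. EGR3 thus went down in PC9 cells while EGR1 and EGR2 rose. With erlotinib it was at least 6.38-fold lower, against a floor of 3 reads over the group (edgeR adjusted p = 0.000972), and with osimertinib the ratio was 0.191 (95% counting interval 0.0356 to 0.666, edgeR adjusted p = 0.0412). The osimertinib call was not made by DESeq2 (adjusted p = 0.109), nor by edgeR without the second T0 or first osimertinib library (adjusted p = 0.202 and 0.35) or without either H1650 osimertinib library (0.0521 and 0.0511). In H1650 cells the ratios were 0.327 (0.151 to 0.651) with erlotinib and 0.951 (0.582 to 1.55) with osimertinib, and neither passed (edgeR adjusted p = 0.0633 and 0.941). EGR3 shares 164 exon bases with AC055854.1 on the opposite strand.

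**Figure D2:**
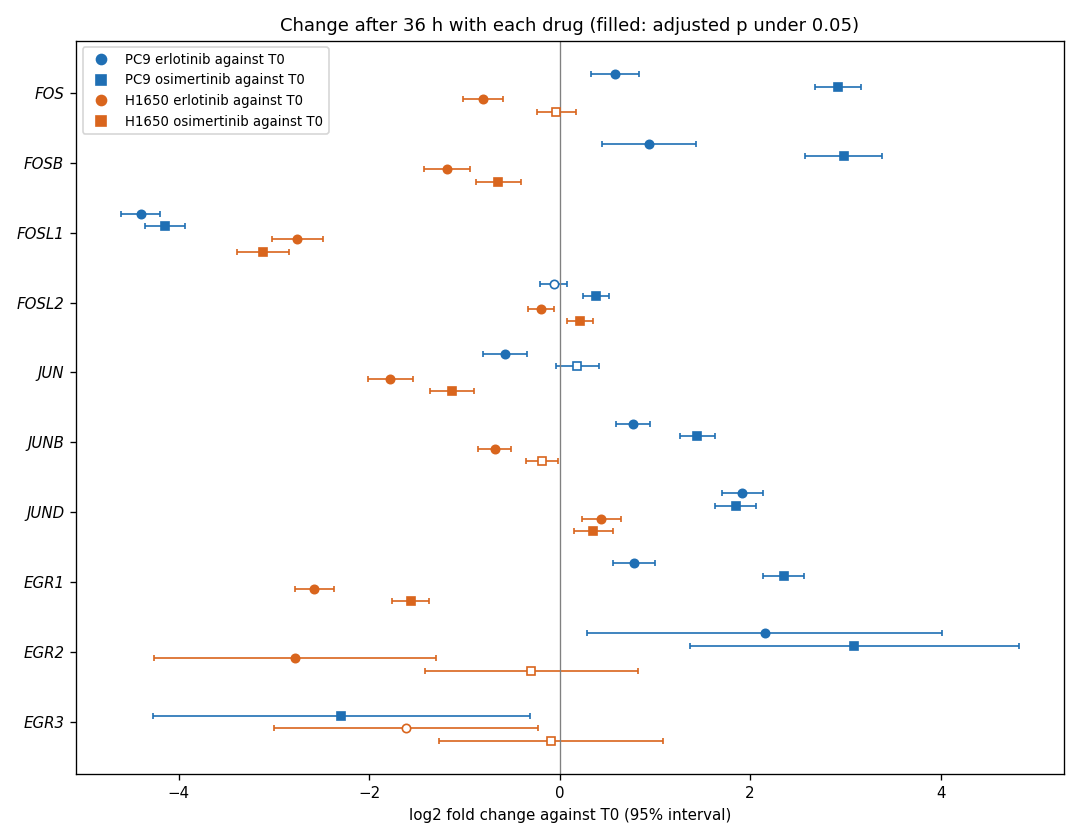
Log2 fold change of each gene after 36 h with each drug against T0 of the same line. Points are estimates of edgeR, lines are 95% confidence intervals, and filled points passed an adjusted p of 0.05. EGR3 with erlotinib in PC9 cells is left out because both libraries had 0 reads. FOSL1 lies left of 0 in all 4 comparisons and JUND right of 0, whereas FOSB and EGR1 lie right of 0 in PC9 cells and left in H1650 cells.

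Whether the lines differed in response was tested directly, as the change in H1650 cells minus that in PC9 cells. With erlotinib 8 of the 10 genes differed, 7 with the lower value in H1650 cells, where 40.8% of all tested genes differed, 21.1% higher and 19.8% lower. With osimertinib 8 differed, again 7 lower, against 41.9% of all genes, 21.5% higher and 20.5% lower. FOSL1 was the gene with the higher value, since it fell less in H1650 cells, with a difference of 1.65 (SE 0.179, edgeR adjusted p = 1.49e-08) for erlotinib and 1.03 (SE 0.185, edgeR adjusted p = 4.42e-05) for osimertinib. FOSL2 was not called to differ, at -0.13 (95% confidence interval -0.33 to 0.06) and -0.17 (-0.36 to 0.03). EGR1 differed by -3.35 (SE 0.144, edgeR adjusted p = 7.4e-17) and -3.92 (SE 0.141, edgeR adjusted p = 2.46e-18). EGR2 differed by -4.93 and -3.39 (edgeR adjusted p = 0.000974 and 0.00827), the latter not called without the first T0 library of PC9 cells (0.0507), and EGR3 was not called (0.0557 and 0.125). The erlotinib value of EGR2 was -9.87 without the first and -3.88 without the second H1650 erlotinib library. These had 7 and 0 reads, so the former value is against 0 reads and depends on the small count that edgeR adds. For FOS the differences were -1.39 and -2.96, for FOSB -2.12 and -3.62, for JUN -1.20 and -1.31, for JUNB -1.45 and -1.63, and for JUND -1.48 and -1.49. JUND therefore rose in both lines but less in H1650 cells.

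Osimertinib at 0.1 μM and erlotinib at 10 μM were set side by side at 36 h, at doses that differ. FOS, FOSB, FOSL2, JUN, JUNB and EGR1 were higher with osimertinib in both lines, and none of the 10 genes was called lower. In PC9 cells 6 genes were called, where 10.1% of all tested genes were higher with osimertinib, 6.41% lower and 16.6% different in either direction. In H1650 cells 7 were called, the same 6 and EGR2, where 5.02% were higher, 3.73% lower and 8.75% different. The drugs did not overlap for 7 of the 10 genes in PC9 cells and 9 in H1650 cells, against 52% and 48.7% of all genes. FOS was 5.05-fold higher in PC9 cells (log2 difference 2.34, SE 0.110, edgeR adjusted p = 3.02e-15) and 1.70-fold higher in H1650 cells (0.77, SE 0.102, edgeR adjusted p = 5.85e-06). FOSB was 4.11-fold higher in PC9 cells (edgeR adjusted p = 5.19e-10) and 1.45-fold higher in H1650 cells (edgeR adjusted p = 0.00312), the latter not called without the second osimertinib library (edgeR adjusted p = 0.129). EGR1 was 2.98-fold higher in PC9 cells (edgeR adjusted p = 1.68e-12) and 2.02-fold higher in H1650 cells (edgeR adjusted p = 1.92e-08).

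For JUN, JUNB and FOSL2 the step between the drugs was smaller, with log2 differences of 0.76, 0.68 and 0.45 in PC9 cells and 0.65, 0.50 and 0.41 in H1650 cells. JUND was at -0.07 (95% confidence interval -0.27 to 0.13) and -0.09 (-0.29 to 0.12), and FOSL1 at 0.26 (0.03 to 0.48, edgeR adjusted p = 0.118) and -0.36 (-0.74 to 0.01, edgeR adjusted p = 0.259). Without the second osimertinib library of PC9 cells FOSL1 was called there, at 0.41 (edgeR adjusted p = 0.0292). The 2 genes that moved the same way in all 4 drug comparisons were thus among those not called between the drugs. EGR2 in H1650 cells had 43 reads with osimertinib and 7 with erlotinib (edgeR adjusted p = 0.0336), a call not made without the second erlotinib, first osimertinib or second osimertinib library (edgeR adjusted p = 0.321, 0.157 and 0.064).

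The step from erlotinib to osimertinib depended on the line for 3 genes, all with a smaller step in H1650 cells, where 3.4% of all tested genes were lower, 1.81% higher and 5.21% different. These were FOS with a difference of -1.57 (SE 0.149, edgeR adjusted p = 5.57e-08), FOSB with -1.50 (SE 0.209, edgeR adjusted p = 2.46e-05) and EGR1 with -0.56 (SE 0.137, edgeR adjusted p = 0.0122). The EGR1 call was lost without the first osimertinib library of PC9 cells, the second erlotinib or the second osimertinib library of H1650 cells (edgeR adjusted p = 0.103, 0.0757 and 0.0554). Without the second osimertinib library of PC9 cells FOSL1 was called too, at -0.77 (edgeR adjusted p = 0.0333). For JUN, JUNB and FOSL2 the differences were -0.11 (95% confidence interval -0.44 to 0.22), -0.18 (-0.43 to 0.06) and -0.03 (-0.23 to 0.16).

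**Figure D3:**
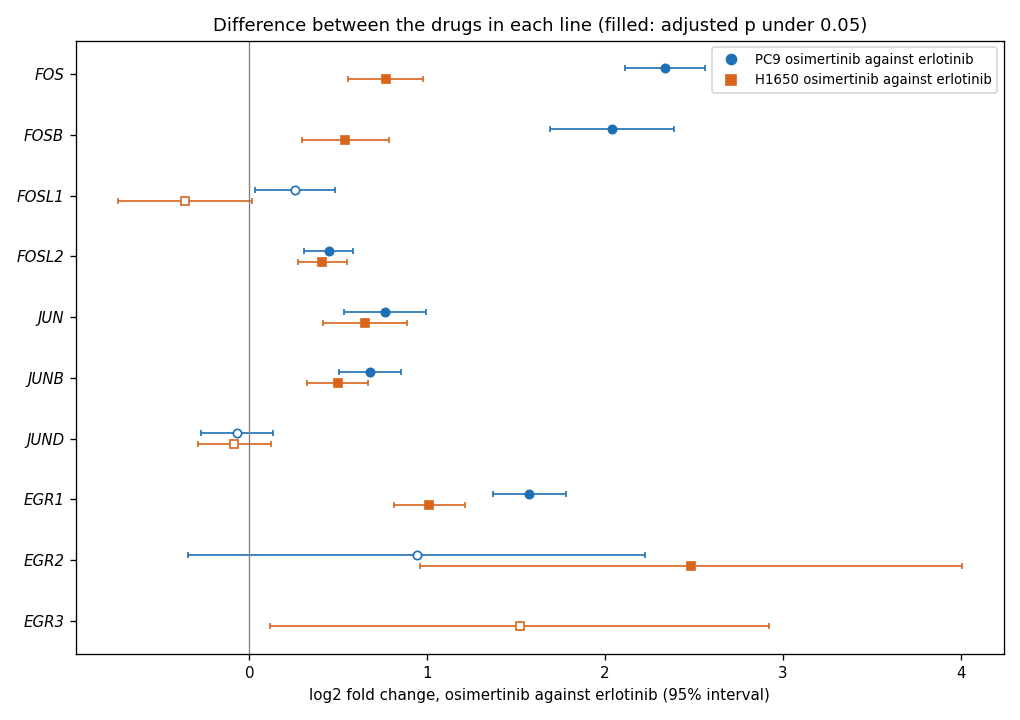
Log2 difference between osimertinib and erlotinib at 36 h in each line, with 95% confidence intervals; filled points passed an adjusted p of 0.05 in edgeR. EGR3 in PC9 cells is left out because its erlotinib libraries had 0 reads. FOS is at 2.34 in PC9 cells and 0.77 in H1650 cells, and JUND is near 0 in both.

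Before the drugs, the lines stood apart for 9 of the 10 genes, where 69.6% of all tested genes differed, 35.8% higher in H1650 cells and 33.8% lower, and the libraries did not overlap for 9 against 84% of all genes. Untreated H1650 cells had more of 8 genes and less of FOSL1, which was 11.6-fold lower (log2 difference -3.54, SE 0.0951, edgeR adjusted p = 2.18e-22). FOSB was 43.9-fold higher in H1650 cells (5.46, SE 0.173, edgeR adjusted p = 8.54e-21), EGR1 14.6-fold (3.87, SE 0.108, edgeR adjusted p = 4.98e-22), FOS 7.25-fold (2.86, SE 0.116, edgeR adjusted p = 2.65e-18) and JUNB 4.38-fold (2.13, SE 0.0890, edgeR adjusted p = 4.72e-18). The FOSB value rests on 84 reads in PC9 cells, and was 5.00 without the second and 6.10 without the first PC9 library on the log2 scale. JUND was 1.96-fold higher and FOSL2 1.25-fold. EGR2 had 57 reads in H1650 cells and 4 in PC9 cells, a normalized ratio of 12.1 (95% counting interval 4.46 to 45.8). JUN passed with a log2 difference of 0.31 (edgeR adjusted p = 0.0131), although its libraries overlapped, DESeq2 did not call it (adjusted p = 0.183), and the call was lost without the first H1650 or the second PC9 library (edgeR adjusted p = 0.492 and 0.195). EGR3 did not pass (ratio 2.06, 1.13 to 3.96, edgeR adjusted p = 0.141).

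Levels of different genes were compared per kilobase, with the gene lengths of the deposited table. On this scale FOSL1 was the highest of the 10 genes in PC9 cells at T0, at 158 ± 1.41 CPM per kb (SD, n = 2), followed by JUN at 58.5 ± 6.84. After erlotinib the order in PC9 cells began with JUND at 140.0 ± 15.2 and JUNB at 66.7 ± 4.47, and after osimertinib with JUND at 133 ± 0.835 and JUNB at 107 ± 4.34. In H1650 cells JUNB led in all 3 groups, at 172 ± 20.9 at T0, 107 ± 1.55 after erlotinib and 151 ± 15.6 after osimertinib. EGR1 came next at T0, at 148 ± 12.2, and overlapped JUNB. JUND came next after both drugs.

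In PC9 cells the FOS family mRNA was mostly FOSL1 at T0 and mostly FOSL2 or FOS after the drugs. FOSL1 made up 85.0 ± 0.604% (SD, n = 2) of the level per kilobase of the 4 FOS genes at T0, 19.9 ± 0.790% after erlotinib and 10.8 ± 1.11% after osimertinib. FOSL2 took the highest share after erlotinib, at 56.1 ± 3.52%, and FOS after osimertinib, at 50.8 ± 0.0526%. The share of FOSL2 with erlotinib stands for a smaller total, since its own level was 22 ± 0.472 CPM per kb at T0 and 21.1 ± 0.0208 with erlotinib. In H1650 cells FOS made up 40.9 ± 2.47% at T0, 40.7 ± 1.68% after erlotinib and 46.9 ± 0.585% after osimertinib, and FOSL1 13.9 ± 0.906%, 3.57 ± 0.264% and 1.89 ± 0.309%. The summed FOS family level in PC9 cells went from 186 ± 2.97 CPM per kb at T0 to 37.6 ± 2.40 with erlotinib and 82.5 ± 5.00 with osimertinib. The summed JUN family level went the other way, from 135 ± 13.7 to 246 ± 23.7 and 306 ± 8.27 CPM per kb. The ratio of FOS family to JUN family mRNA in PC9 cells was therefore 1.39 ± 0.119 at T0, 0.153 ± 0.00504 with erlotinib and 0.269 ± 0.00905 with osimertinib. In H1650 cells it was 0.311 ± 0.0288, 0.250 ± 0.0206 and 0.304 ± 0.0487. These values describe mRNA, and no test was run on them.

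Within the JUN family, JUND went from 27.4 ± 0.637% of the level per kilobase in PC9 cells at T0 to 56.9 ± 0.698% with erlotinib and 43.5 ± 1.45% with osimertinib. In H1650 cells it went from 22.9 ± 0.385% to 43.3 ± 1.38% and 33.4 ± 0.101%. JUN went from 43.4 ± 0.672% to 16 ± 0.104% and 21.7 ± 0.969% in PC9 cells and from 22.9 ± 0.911% to 9.36 ± 0.490% and 12 ± 0.581% in H1650 cells. With osimertinib in PC9 cells the JUN share was lower while its own level was 58.5 ± 6.84 CPM per kb at T0 and 66.6 ± 4.76 with osimertinib, not called, and JUNB and JUND rose. JUNB stayed above JUN in all 5 groups other than PC9 cells at T0.

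**Figure D4:**
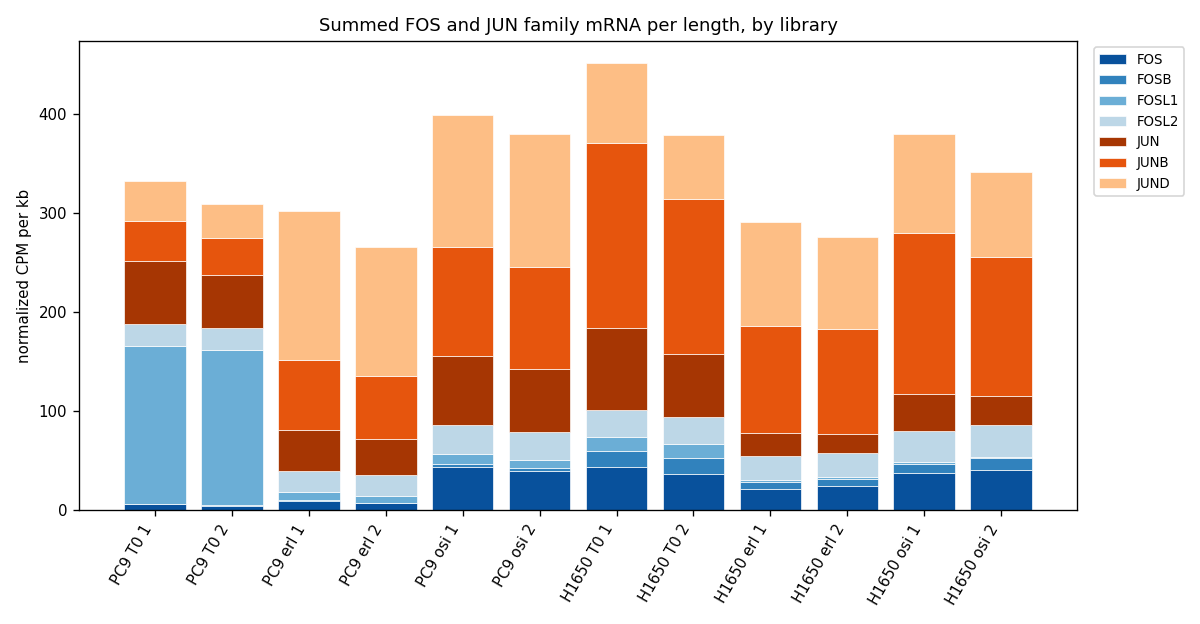
Level per kilobase of the 7 FOS and JUN family genes, stacked by gene, with 1 bar for each of the 12 libraries (CPM per kb, axis from 0). As the mean of 2 replicates, FOSL1 takes 85.0% of the FOS family level in PC9 cells at T0 and 19.9% or less in every other group.

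Genes around AP-1 and EGR were taken from lists written from general knowledge, and are given by counts with no set test. The counts are read against all tested genes, of which 32.7% rose and 29.1% fell in PC9 cells with erlotinib and 32.7% and 28.7% with osimertinib, and in H1650 cells 18% and 18.5% with erlotinib and 17.8% and 17.9% with osimertinib. The highest and lowest genes given for each list are those among called genes with a mean of at least 5 CPM over all 12 libraries. Of 12 other AP-1 dimer partners (ATF, BATF, JDP2 and MAF genes), 5 rose and 2 fell in PC9 cells with erlotinib, 6 and 2 with osimertinib, and in H1650 cells 3 and 4 with erlotinib and 4 and 4 with osimertinib, so that the calls with erlotinib in PC9 cells were near the 61.8% of all genes. With erlotinib the ends in PC9 cells were ATF3, a stress-induced factor, at 3.54, and MAFF, a small MAF protein, at -2.07. In H1650 cells they were JDP2, a repressor that pairs with JUN, at 0.95, and ATF3 at -0.63. Below that mean level, MAF and BATF3 fell further in H1650 cells, by 1.41 and 1.10 on the log2 scale. ATF3 thus rose in PC9 cells and fell in H1650 cells. Of the EGR co-repressors NAB1 and NAB2 with EGR4, 1 rose and 1 fell in each of the 4 comparisons. With erlotinib NAB2 was at 0.61 and NAB1 at -0.49 in PC9 cells, and NAB1 rose by 0.36 in H1650 cells. EGR4, the remaining EGR gene, fell in H1650 cells from a mean of 6.88 CPM at T0 to 0.411 CPM with erlotinib and 2.47 CPM with osimertinib, by 4.03 and 1.47 on the log2 scale, and was near the limit of detection in PC9 cells.

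Upstream, 6 genes for SRF and its cofactors split, with 3 higher and 2 lower in PC9 cells with erlotinib, 2 and 3 with osimertinib, and 1 and 2 and 1 and 1 in H1650 cells. SRF itself changed by 0.52 and 0.47 in PC9 cells and by -0.79 and -0.69 in H1650 cells, all 4 called. Its 4 signs were those of EGR1 and FOSB. FOS, JUNB and EGR2 had them too, although they were not called with osimertinib in H1650 cells. The part of SRF in these changes was not tested. MRTFA, an actin-regulated SRF cofactor, was highest in PC9 cells with erlotinib at 0.82, and ELK3, a ternary complex factor, lowest at -0.87. ELK4, also a ternary complex factor, was highest in H1650 cells with erlotinib at 0.29. Of 7 JNK and p38 kinase genes, 2 rose and 4 fell in PC9 cells with erlotinib, 1 and 4 with osimertinib, and in H1650 cells 2 and 1 with erlotinib and 1 and 3 with osimertinib. The ends with erlotinib in PC9 cells were MAPK11 at 0.82 and MAPK13 at -0.79, both p38 kinases. In H1650 cells they were MAPK13 at 0.75 and the JNK gene MAPK9 at -0.27.

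Of 18 other immediate-early genes, 7 rose and 5 fell in PC9 cells with erlotinib, near the 32.7% and 29.1% of all genes, and 11 rose and 5 fell with osimertinib, whereas in H1650 cells 2 rose and 11 fell with erlotinib and 4 rose and 8 fell with osimertinib. Their medians were 0.13, 0.77, -0.60 and -0.29. BTG2, an anti-proliferative gene, was highest with erlotinib in both lines, at 2.95 and 1.63, and the lowest were IER3 in PC9 cells, at -2.09, and CCN2, a matrix-associated signalling protein, in H1650 cells, at -2.64. The ERK feedback genes (DUSP, Sprouty and SPRED genes, PHLDA1, ETV4 and ETV5), which report ERK output, did not move with FOS and EGR1 in PC9 cells, where 11 of 11 fell with both drugs, with medians of -3.93 and -4.20. In H1650 cells 8 rose and 1 fell with erlotinib, with a median of 0.66, and 1 rose and 4 fell with osimertinib, with a median of -0.29. With erlotinib SPRY1 at -1.80 and SPRY4 at -8.45 were the ends in PC9 cells, and ETV5 at 1.71 and DUSP5 at -0.74 in H1650 cells. FOSL1, which fell in both lines, and the ERK feedback genes thus had the same sign in PC9 cells and mostly opposite signs in H1650 cells with erlotinib.

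Of 20 genes linked to AP-1 as targets, 18 were tested and MMP3 and MMP13 had too few reads. In PC9 cells 5 rose and 10 fell with erlotinib and 4 rose and 11 fell with osimertinib, with medians of -1.80 and -0.88. The medians were -1.10 and -0.73 when genes without reads in 1 or both groups had each group set to at least 3 reads. MMP10, among the 18 tested, had no read in any PC9 library. In these comparisons 61.8% and 61.4% of all tested genes were called, 29.1% and 28.7% of all genes as lower. In H1650 cells 1 rose and 14 fell with erlotinib and 2 rose and 15 fell with osimertinib, with medians of -0.74 and -0.57, where 18.5% and 17.9% of all genes fell. MMP14, a membrane-bound matrix protease, was highest with erlotinib in PC9 cells, at 1.81, and CD44, a hyaluronan receptor, lowest, at -3.36, among genes with a mean of at least 5 CPM. Below that level AREG, an EGFR ligand, fell by 4.27, and CXCL8, a chemokine, went from 71 reads at T0 to 0. VEGFA, an angiogenic factor, was highest with erlotinib in H1650 cells, at 1.12.

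Of 12 genes linked to EGR1 as targets, 6 rose and 4 fell in PC9 cells with erlotinib and 7 rose and 3 fell with osimertinib, with medians of 0.21 and 0.50, where 32.7% of all genes rose with each drug. In H1650 cells 1 rose and 8 fell with erlotinib and 1 rose and 7 fell with osimertinib, with medians of -0.68 and -0.31, where 18.5% and 17.9% of all genes fell. ICAM1, an adhesion molecule, was highest with erlotinib in PC9 cells, at 2.11, and THBS1, a matrix glycoprotein, was lowest in both lines, at -0.70 and -2.00. These lists hold genes with many other regulators, and the counts say nothing of which factor acted.

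**Figure D5:**
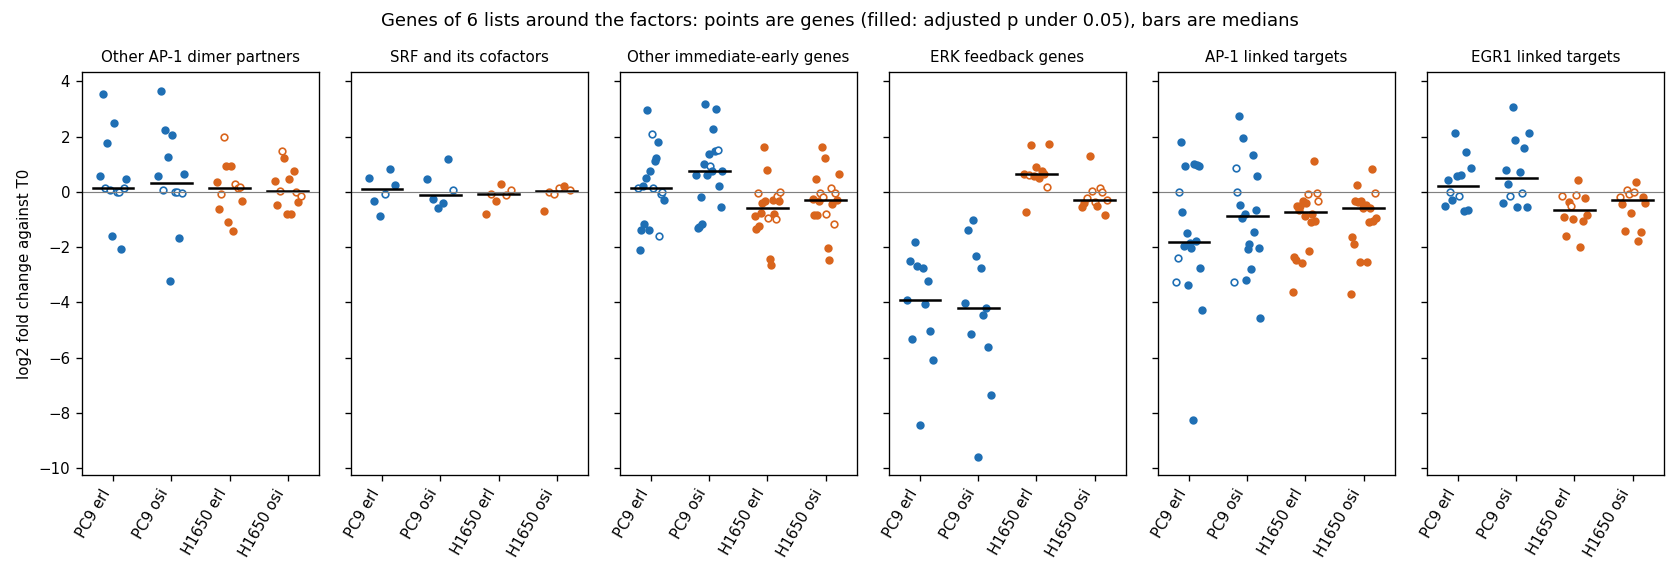
Log2 fold change of the genes in 6 lists after each drug against T0, with 1 point per gene, filled where the adjusted p was under 0.05, and a line at the list's median. Values of genes with few reads, such as SPRY4 at -8.45, depend on the small count that edgeR adds. The ERK feedback genes lie below 0 in PC9 cells with both drugs and mostly above 0 in H1650 cells with erlotinib.

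For each gene, the 2 tested genes with the most similar pattern over the 12 libraries were found by Pearson's r of log2 CPM among 11698 genes with a mean of at least 5 CPM. The 12 points fall into 6 groups and 2 lines, so r mostly describes group levels. JUNB was closest to ID3, an inhibitor of basic helix-loop-helix factors (r = 0.991), and to DUSP1, an immediate-early MAPK phosphatase (r = 0.987). FOSB was closest to ZFP36, an immediate-early gene whose product destabilizes mRNA (r = 0.989), and to COL5A1 (r = 0.983). FOSL1 was closest to COTL1, an actin-binding protein (r = 0.996), and VARS1, a tRNA synthetase (r = 0.991). JUND was closest to RARG, a retinoic acid receptor (r = 0.992), and PSAP, a lysosomal protein (r = 0.984). The nearest genes were LIMK2 and LATS2 for FOS (r = 0.973 and 0.971), ADM and DSTN for EGR1 (0.979 and 0.967), KHDRBS1 and ACTN1 for JUN (0.969 and 0.957), and TM4SF1 and CD63 for FOSL2 (0.956 and 0.947). EGR2 and EGR3, with few reads, were nearest to UAP1L1 and SLC29A4 (0.909 and 0.889) and to IL27RA and SH3BGRL3 (0.970 for both).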

How the data were processed

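RNA of 12 libraries was sequenced after isolation of polyadenylated RNA. The authors ran the DolphinNext pipeline and deposited the whole-number read counts of featureCounts per gene, without normalization, with a length in bases for each gene. The submitters' processing notes name GRCh38 and DESeq2. The aligner, annotation release and strand setting are not given in the sources used here. The methods describe a trypsin harvest for the 36 h samples.

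The count table was tested with edgeR 4.0.16 under R 4.3.3. Its expression filter kept 19108 genes, TMM factors were 0.941 to 1.08, and a quasi-likelihood model with 6 groups was fitted to all libraries (with 6 residual degrees of freedom and 20.7 of the prior). In all 10 contrasts were tested, with Benjamini-Hochberg adjustment over all tested genes. The standard error is the log2 fold change over the square root of F, and the SD of 2 libraries is itself imprecise. Library replicates differed by more than sampling noise. Over all tested genes, the deviations of same-numbered replicates correlated little (15 pairs, r from -0.067 to 0.095), and the main fit did not pair them. JUN and JUNB were nonetheless higher in the first replicate than in the second in every group. This r does not exclude a shared replicate effect on single genes, and a replicate block was therefore among the alternatives. Named genes are the 10 members, the highest and lowest called gene of each list with erlotinib in each line at a mean of at least 5 CPM, and the 2 genes most like each member. Some genes this rule names are not reported here. EGR4, HOOK2, MAF, BATF3, AREG and CXCL8, and the SRF values in PC9 cells, were added after their values were seen. The members and lists were chosen with earlier results of these data known. Exon overlaps come from GENCODE 29. Alternatives were upper quartile or RLE normalization, DESeq2 1.42.0, no filter or a minimum of 10 counts in each library, a threshold of 0.01, a log2 fold change over 1, a fit per line, a replicate block, and leaving out each library. The test was first tried on simulated data.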

Additional observations from a re-analysis of the deposited data

Results flagged for a closer look

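The change from T0 differed between the lines, by a test of the difference itself in edgeR, for 8 of the 10 genes with each drug. As H1650 minus PC9 on the log2 scale, the erlotinib values were -1.39 for FOS, -2.12 for FOSB, 1.65 for FOSL1, -1.20 for JUN, -1.45 for JUNB, -1.48 for JUND, -3.35 for EGR1 and -4.93 for EGR2. The osimertinib values were -2.96 for FOS, -3.62 for FOSB, 1.03 for FOSL1, -1.31 for JUN, -1.63 for JUNB, -1.49 for JUND, -3.92 for EGR1 and -3.39 for EGR2. EGR2 had 7 to 57 reads per H1650 group and 4 to 35 per PC9 group. Its erlotinib value was -9.87 without the first and -3.88 without the second H1650 erlotinib library. The former is against 0 reads and is no bound. The step from erlotinib to osimertinib also differed between the lines for FOS (-1.57), FOSB (-1.50) and EGR1 (-0.56). The T0 libraries of a line enter the values of both drugs, so these are not independent of each other. With 2 libraries in each group, it cannot be told which of them is outlying, and each library was instead left out in turn.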

How the results depend on the processing

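The 100 log2 fold changes of the 10 genes in 10 contrasts, 74 of them called, were recomputed under each alternative, which gave 2031 values. Direction and side of the threshold held in 1937, 65 were no longer called, 12 were newly called and 17 changed sign, none of a called value. A log2 fold change over 1 left 4 genes called in PC9 cells with erlotinib, 5 and 3 in H1650 cells with erlotinib and osimertinib, and 3 and 2 between the drugs in PC9 and H1650 cells, by its construction. Leaving out 1 library gave 7 to 9 calls in PC9 cells with erlotinib and 8 to 9 with osimertinib, 7 to 9 and 5 to 6 in H1650 cells, 6 to 7 and 5 to 7 between the drugs, 2 to 4 for the line dependence of that step, 8 to 9 and 7 to 9 for the response differences, and 8 to 9 at T0. Sign changes were all of uncalled values, and the cause was not tested. FOSL2 in PC9 cells with erlotinib was 0.027 with upper quartile normalization. For the line dependence of the drug step, FOSL2 was 0.0023 without a filter and JUND 0.010 with upper quartile normalization and 0.023 without a filter. Without 1 library, osimertinib in H1650 cells ranged from -0.15 to 0.085 for FOS, -0.59 to 0.042 for EGR2 and -0.45 to 0.34 for EGR3, the step between the drugs for JUND from -0.18 to 0.043 in PC9 cells and -0.20 to 0.024 in H1650 cells, and its line dependence from -0.29 to 0.041 for JUN, -0.13 to 0.095 for JUND and -3.39 to 1.52 for EGR3. FOSB in PC9 cells with erlotinib ranged from 0.48 to 1.59, without the second and first T0 library, and EGR2 in H1650 cells with erlotinib from -7.73 to -1.75, without the first and second erlotinib library.

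With the replicate number as a block, JUN in PC9 cells with osimertinib, at 0.19 (edgeR adjusted p = 0.00596), and JUNB in H1650 cells with osimertinib, at -0.18 (0.00999), were newly called, and no call of these genes was lost. Over all genes the replicate block moved the calls from 1672 to 2670 between the drugs in H1650 cells and from 995 to 1722 for the line dependence of the step. Without a filter, JUNB in H1650 cells with osimertinib was newly called (edgeR adjusted p = 0.0438). So was the difference between the lines in the erlotinib response of EGR3 (0.0483). With upper quartile normalization, the difference between the lines in the osimertinib response of FOSL2 was newly called (0.0437). With a fit per line, this held for EGR3 in H1650 cells with erlotinib (0.033). The median of all genes moved by at most 0.091 on the log2 scale with any scaling. With at least 10 counts in every library, EGR2 and EGR3 could not be fitted. At this depth EGR2 and EGR3, with 0 to 32 reads per library, carry wide intervals, and differences of a few reads were not detectable.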
